A study of Homo sapiens with 8 samples.

Results

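STRN, TAF2, RNF114, UTP25, GNL3L and PMF1 are 6 of the 17309 genes counted in colorectal cancer cells in which NAT10 was knocked down with a short hairpin RNA. They were selected on 2 properties: an unbroken run of 13 or 14 bases of a NAT10 hairpin target in their mRNAs, and their fold changes after shNAT10 in the same libraries, some lowered and some not. Their fold changes after knockdown are therefore given as a description and are not tested. All 6 passed the filter on low counts that left 13619 genes for testing.

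A short hairpin RNA is cut in the cell to a small duplex, and its antisense arm becomes the guide that Argonaute proteins carry to matching RNA. A fully matched RNA is cut opposite the middle of the guide. A match that is confined to the seed, a stretch near the 5′ end of the guide, can also lower an RNA, usually less. For this reason hairpins can act on mRNAs other than the intended one.

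SW480 and DLD-1 are lines of human colorectal cancer cells. Cells of each line received shControl virus (genotype WT) or shNAT10 virus (genotype NAT10 knockdown), and each of the 4 groups has 2 libraries of poly(A)-selected RNA labelled as biological replicates. The labels do not say whether the replicates were separate cultures, so the p-values measure the spread between these libraries. The study designed 2 NAT10 hairpins, shNAT10-1 and shNAT10-2, and the labels do not say which was sequenced. The paper names shNAT10-2 for its xenograft and rescue experiments. Runs of the shNAT10-1 target bear on these libraries only if that hairpin was used. The shControl hairpin was not searched for runs.

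The libraries held between 15147805 and 17271336 counts assigned to genes. The 2 SW480 shNAT10 libraries stood further apart than the other pairs, with a mean squared difference of 9.82 times the sampling variance against 3.34 to 4.63 in the other groups. The epithelial markers KRT8, KRT18, EPCAM and CDH1 were at 74.7 CPM (normalised read counts, scaled to library size) or more in every library, whereas the fibroblast markers COL1A2, COL3A1 and DCN and the endothelial markers PECAM1 and CDH5 had at most 3 counts in any library. COL1A1 and VWF, on the same lists, reached 39 and 27 counts. Of the other epithelial markers, VIL1 (4.23 to 15.8 CPM) and LGALS4 (0.654 to 2.57 CPM) were low, and CD68, a macrophage marker, had 17.4 to 30.2 CPM. In bulk RNA, fewer cells with a transcript and less of it per cell cannot be told apart. The targeted gene, NAT10, an RNA acetyltransferase, had 122 CPM in both SW480 shControl libraries and 23.6 and 27.9 CPM in the shNAT10 libraries. In DLD-1 it had 121 CPM in both shControl libraries and 59.0 and 54.4 CPM after shNAT10. Its log2 fold change was -2.25 ± 0.09 (SE, n = 2 against 2) in SW480 and -1.09 ± 0.08 in DLD-1 (adjusted p = 3.74e-09 and 2.73e-05, edgeR quasi-likelihood test). Each SE of a log2 fold change comes from this fit, which shares its estimate of the spread over all 8 libraries. It is not the spread between the replicates compared. For STRN in SW480 the SE was 0.09 and the SD between replicates 0.18, and for UTP25 in DLD-1 0.08 and 0.015.

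The matches are shown first, because sequence defined the genes. Each hairpin target is 19 bases long and is written here in the direction of the mRNA, with capitals on the bases opposite the seed (bases 2 to 8 of the antisense arm, hence bases 12 to 18 of the target).
shNAT10-1 target: ggccaaagctgTCTTGAAa
shNAT10-1 antisense arm: tTTCAAGAcagctttggcc
shNAT10-2 target: cagtgacgaccTAGATGAa
All 6 genes matched shNAT10-1, and none held 8 or more consecutive bases of shNAT10-2. NAT10 held both targets in full in its coding sequence, the shNAT10-1 site across the junction of exons 8 and 9.

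The sites of 5 of the 6 genes, and that of TARS2, are printed to show which part of the target they share. Capitals mark the unbroken run.
STRN: aGCCAAAGCTGTCTTccaa
RNF114: tGCCAAAGCTGTCTTcccc
UTP25: GGCCAAAGCTGTCTacctt
GNL3L: GGCCAAAGCTGTCctagct
PMF1: cctagAAGCTGTCTTGAAt
TARS2: atCCAAAGCTGTCTTGAtt
STRN, RNF114, UTP25 and GNL3L shared the 5′ part of the target, which pairs with the 3′ part of the guide, and their runs ended inside the seed site. PMF1 and TAF2 shared the other end, with a run that covered all 7 bases of the seed site. Every run of 13 bases must cover target bases 7 to 13, and so the bases on both sides of the expected cut, between target bases 9 and 10.

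STRN, which encodes the scaffold protein striatin, had its run of 14 bases (target bases 2 to 15) in the 3′UTR, in exon 18 of 18, at chr2:36847053-36847066 on the minus strand (GRCh38, GENCODE 29). Counting from the 5′ end of the target, the differences at this site were G1A, G16C and A17C, so that 16 of 19 bases matched. RNF114 and UTP25 also had runs of 14 bases in the 3′UTR, in their last exons, at chr20:49952328-49952341 (plus strand, target bases 2 to 15) and chr1:209855849-209855862 (plus strand, target bases 1 to 14). Both matched 14 of 19 bases.

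TAF2 had a run of 14 bases (target bases 5 to 18) in coding exon 23 of 26, with 15 of 19 bases matching. GNL3L had 13 bases (target bases 1 to 13) in coding exon 12 of 16 at chrX:54551945-54551957, plus strand, and 14 of 19 bases matched. PMF1 had 13 bases (target bases 6 to 18) in coding exon 3 of 5 at chr1:156233665-156233677, plus strand, and only those 13 bases matched. This PMF1 site also lies in the readthrough gene PMF1-BGLAP, and reads of these 2 genes cannot be fully told apart.

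**Figure D1:**
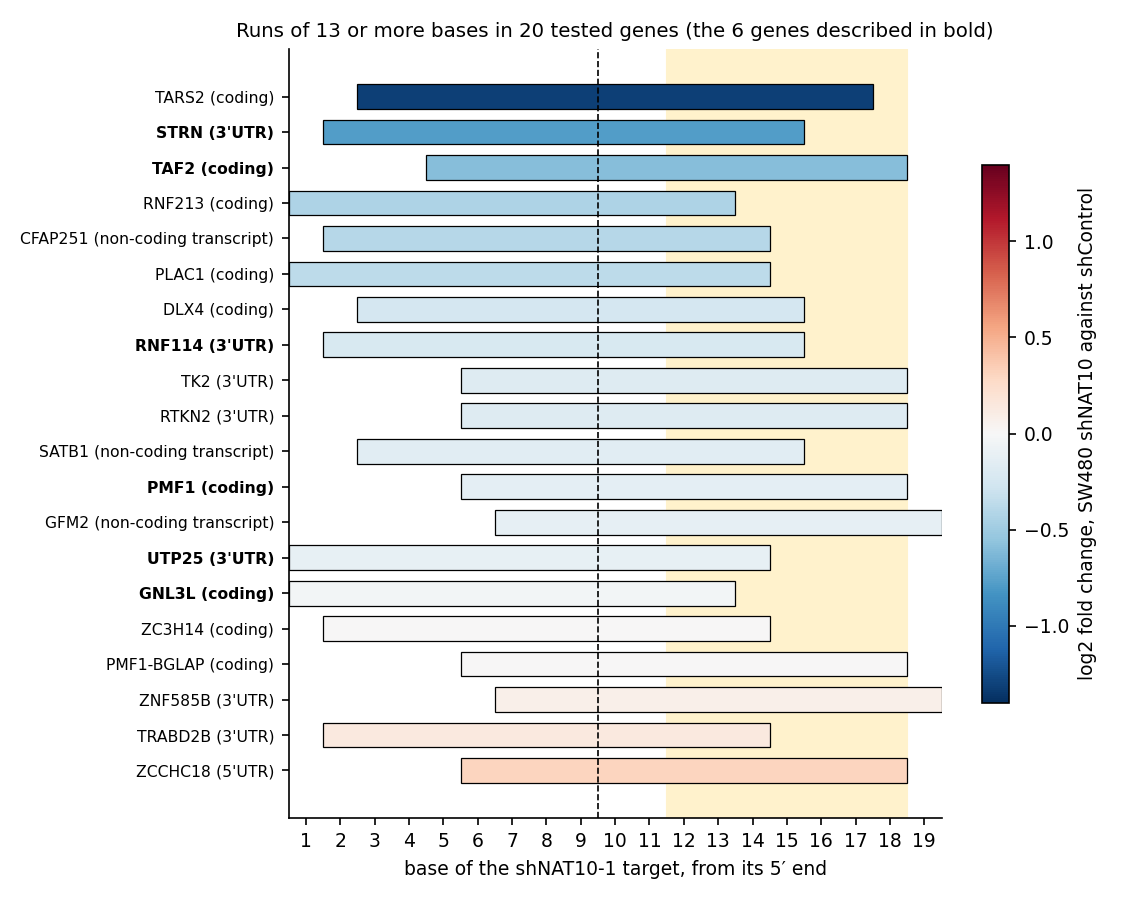
Position of the runs of 13 or more bases of the shNAT10-1 target (x axis, target base from the 5′ end) in 20 tested genes, NAT10 left out, sorted by and coloured for the SW480 log2 fold change. Yellow marks the seed site (bases 12 to 18), the dashed line the expected cut between bases 9 and 10, and bold type the 6 genes described. TARS2, STRN and TAF2 stand at the top with log2 fold changes of -1.31, -0.78 and -0.60, with runs at target bases 3 to 17, 2 to 15 and 5 to 18.

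STRN was the most lowered of the 6 genes. It had 99.5 and 108 CPM in the SW480 shControl libraries and 55.5 and 65.2 CPM in the shNAT10 libraries. In DLD-1 the values were 108 and 124 CPM in shControl and 89.1 and 94.9 CPM in shNAT10. In each line the higher shNAT10 library was still below the lower shControl library. The log2 fold change was -0.78 ± 0.09 (SE, n = 2 against 2) in SW480, where 58.3% of the shControl level was left, and -0.33 ± 0.09 in DLD-1, where 79.4% was left. In SW480, 168 of the 13619 tested genes had a lower fold change, and in DLD-1 752 did. Because STRN was chosen with these values known, nothing is read from its rank. Without SW480 shNAT10 replicate 2 the SW480 value was -0.90, and without replicate 1 it was -0.66.

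The deposited table splits STRN into 3 transcripts. NM_003162.4, which carries the run in its 3′UTR, held 38.1% of the STRN counts. It went from 34.7 and 38.0 CPM in SW480 shControl to 17.7 and 25.2 CPM in shNAT10, leaving 59.0%. XM_005264519.5, which has no counterpart in the annotation searched, held 60.4% and went from 63.5 and 66.7 CPM to 36.1 and 38.8 CPM, leaving 57.5%. In DLD-1 the shares left were 74.6% and 81.6%. Both transcripts were thus lower in both lines, and whether XM_005264519.5 also holds the run was not tested. With single-end reads of 50 bases, the split of counts between transcripts of one gene is an estimate.

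TAF2 encodes a subunit of TFIID, the general factor that recognises core promoters. It had 88.0 and 89.3 CPM in SW480 shControl and 51.8 and 65.3 CPM in shNAT10. In DLD-1 it had 88.8 and 95.9 CPM against 77.6 and 84.2 CPM. The groups did not overlap in either line, but the 2 SW480 shNAT10 libraries were far apart. The log2 fold change was -0.60 ± 0.10 in SW480 (66.1% left) and -0.19 ± 0.10 in DLD-1 (87.6% left). Without SW480 shNAT10 replicate 2 the SW480 value was -0.77, and without replicate 1 it was -0.43. NM_003184.4, the transcript with the run, held 76.5% of the TAF2 counts and kept 68.4% of its level in SW480, and the 13 other listed transcripts together kept 60.8%. In DLD-1 these shares were 84.7% and 102%. The 13 other transcripts have no counterpart in the annotation searched, and whether they also hold the run was not tested.

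RNF114 encodes a RING-type ubiquitin ligase. It was at 89.9 and 85.8 CPM in SW480 shControl and at 78.5 and 71.7 CPM in shNAT10. The DLD-1 values were 75.3 and 76.5 CPM against 63.9 and 67.4 CPM. Here the shNAT10 libraries were again the lower ones in each line, by a small margin of similar size: the log2 fold change was -0.23 ± 0.07 in SW480 and -0.21 ± 0.07 in DLD-1.

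UTP25 encodes a factor of the small-subunit processome, the nucleolar assembly that makes the small ribosomal subunit and in which NAT10 also acts. It had 57.8 and 58.6 CPM in SW480 shControl against 52.0 and 55.7 CPM in shNAT10, and 35.1 and 34.7 CPM in DLD-1 shControl against 35.9 and 35.6 CPM in shNAT10. The shNAT10 libraries were lower in SW480 and higher in DLD-1 without overlap, but the log2 fold changes were only -0.11 ± 0.07 and 0.03 ± 0.08.

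GNL3L, a nucleolar GTPase, had 56.7 and 53.2 CPM in SW480 shControl and 53.7 and 53.1 CPM in shNAT10. In DLD-1 it had 37.9 and 45.5 CPM against 43.2 and 41.3 CPM. In DLD-1 the shNAT10 libraries lay between the shControl libraries, and the log2 fold changes were -0.04 ± 0.09 in SW480 and 0.02 ± 0.09 in DLD-1.

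PMF1, a subunit of the MIS12 complex of the kinetochore, had 58.1 and 50.2 CPM in SW480 shControl and 52.3 and 46.3 CPM in shNAT10, which overlapped. In DLD-1 it had 66.8 and 55.6 CPM in shControl and 52.0 and 52.3 CPM in shNAT10, without overlap. The log2 fold changes were -0.14 ± 0.10 and -0.23 ± 0.10. Single libraries moved these values, in DLD-1 mainly those of shControl. Without shControl replicate 1 they were -0.03 in SW480 and -0.09 in DLD-1, and without shControl replicate 2 -0.24 and -0.36. Without shNAT10 replicate 1 they were -0.22 and -0.23, and without shNAT10 replicate 2 -0.05 and -0.24.

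**Figure D2:**
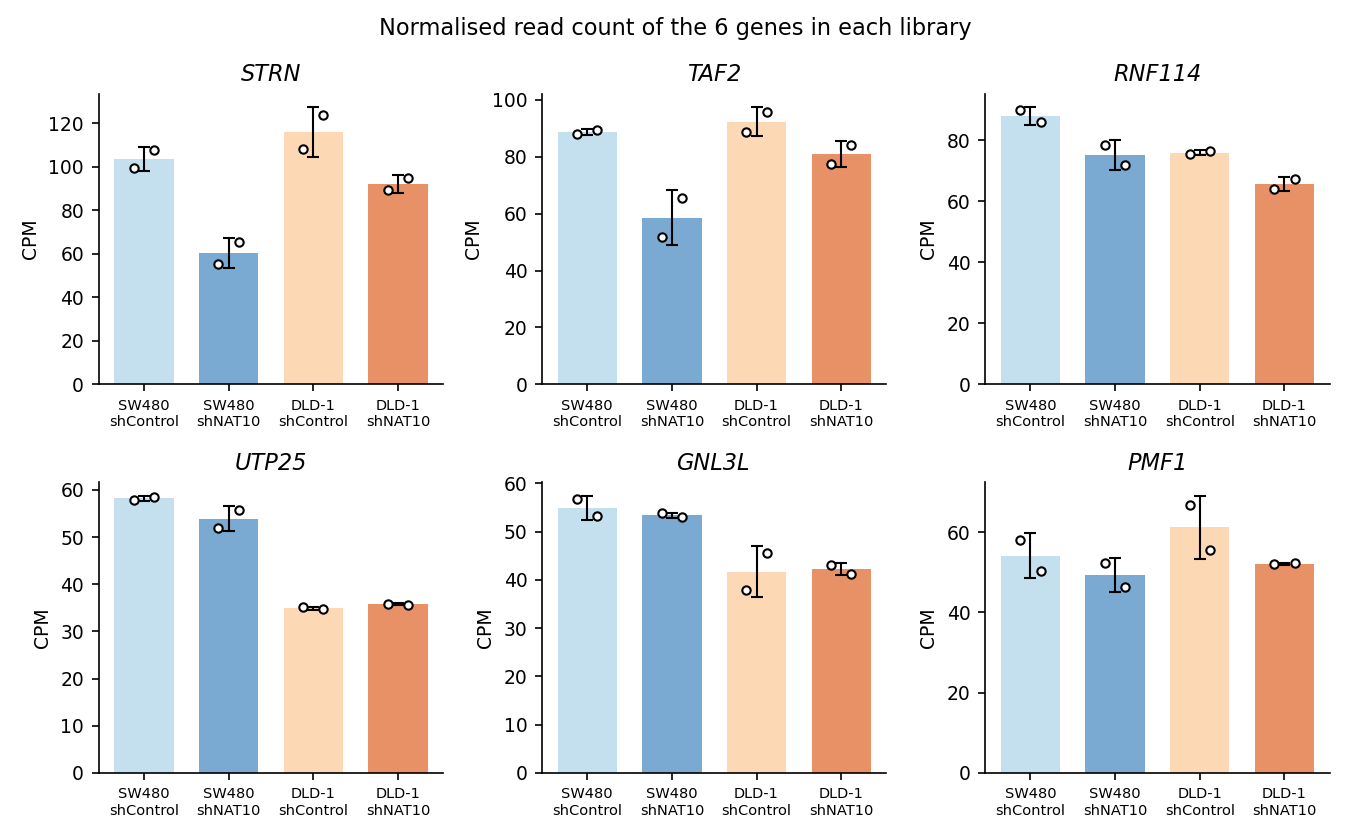
Normalised read count (y axis, CPM from 0) of the 6 genes in the 4 groups. Bars are means of 2 libraries, error bars are SD and circles are the libraries. STRN and TAF2 show the widest gap between SW480 shControl and shNAT10 (104 ± 5.71 against 60.3 ± 6.91 CPM for STRN and 88.7 ± 0.962 against 58.6 ± 9.57 CPM for TAF2), whereas GNL3L is close to level in both lines.

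Among the 6 genes, the shNAT10 libraries lay wholly below the shControl libraries for 4 in SW480 (background over all tested genes 26.2%) and for 4 in DLD-1 (18.2%). They lay wholly above for 0 in SW480 (21.7%) and for 1, UTP25, in DLD-1 (17.7%). STRN, TAF2 and RNF114 were below in both lines (6.26%). These shares were fixed in part by how the genes were chosen, and nothing is read from them. The 6 genes had a median of -0.18 in SW480 and -0.20 in DLD-1, beside -0.01 and 0.00 over all tested genes.

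Run length did not order these 6 genes: STRN, TAF2, RNF114 and UTP25 all had 14 bases and ranged from -0.78 to -0.11 in SW480. The total of matching bases was 16 in STRN, 15 in TAF2 and 13 or 14 in the other 4, and since the fold changes entered the choice of these genes, nothing is read from that order. The run of RNF114 covered the same target bases as that of STRN, also in a 3′UTR. Outside the run both sites carried G16C and A17C, and RNF114 carried in addition A18C and A19C. PMF1 shared the complete seed site with TAF2, with a run shorter by a single base, and its fold change in SW480 was -0.14 against -0.60. In all 6 genes, no complete shNAT10-1 seed site lay in the 3′UTR of the representative transcript, whereas 16.8% of the tested genes had one there. In coding sequence TAF2 had 2, GNL3L 1 and PMF1 1 such site.

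Levels per transcript length, as FPKM summed over the transcripts of a gene, put PMF1 first in SW480 shControl (64.5 ± 6.31, SD, n = 2), followed by RNF114 (40.7 ± 1.05), TAF2 (18.9 ± 0.502), STRN (16.2 ± 0.849), UTP25 (7.13 ± 0.127) and GNL3L (6.61 ± 0.247). The order in DLD-1 shControl was PMF1 (71.5 ± 9.33), RNF114 (34.8 ± 0.502), TAF2 (19.5 ± 1.10), STRN (17.2 ± 2.44), GNL3L (4.97 ± 0.665) and UTP25 (4.25 ± 0.01). TAF2 and STRN in DLD-1 did not differ beyond their spread, since their SDs overlapped, and the other neighbours in each order were further apart than their SDs.

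The SW480 and DLD-1 shControl libraries give a comparison that did not enter the choice of genes, and in it the 6 genes were tested. UTP25 was 1.67-fold higher in SW480 (log2 0.74 ± 0.07, adjusted p = 4.05e-07), GNL3L 1.32-fold higher (0.40 ± 0.09, adjusted p = 0.000885) and RNF114 1.16-fold higher (0.21 ± 0.07, adjusted p = 0.0184, edgeR quasi-likelihood test). For each of these, both SW480 libraries were above both DLD-1 libraries, as for 44.5% of all tested genes. STRN (-0.16 ± 0.09, adjusted p = 0.113), PMF1 (-0.18 ± 0.10, adjusted p = 0.121) and TAF2 (-0.06 ± 0.09, adjusted p = 0.588) did not pass. Thus 3 of 6 were called, while 73.8% of all tested genes were. The RNF114 call was lost without SW480 shControl replicate 1 (adjusted p = 0.120) or without DLD-1 shControl replicate 1 or 2 (adjusted p = 0.0906 and 0.0659). STRN was called without DLD-1 shControl replicate 1 (-0.26, adjusted p = 0.0442) and PMF1 without replicate 2 (-0.30, adjusted p = 0.0261).

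The profiles of STRN and TAF2 over the 8 libraries were alike, with a Pearson r of 0.98 between their log2 CPM values. Those of UTP25 and GNL3L followed each other too (r = 0.92), with higher values in SW480 than in DLD-1. STRN and TAF2 were chosen with their fold changes after shNAT10 known, so nothing is read from their likeness. Over these 8 libraries, which fall into 4 groups, the genes most like STRN were MINDY2 (r = 0.99), SLC19A2 (0.99) and TAF2. For TAF2 they included BLTP3A and CDV3 (r = 0.986 and 0.984), for RNF114 GLB1L, UBE2W and RNF11 (0.957 to 0.972), and for UTP25 TPSB2, ASAP1 and PHF24 (0.999 each). For GNL3L they were COL1A1, PMFBP1 and POFUT1 (0.989 to 0.991), and for PMF1 TMEM128, CNEP1R1 and PBK (0.928 to 0.969). COL1A1 had at most 2.28 CPM in any library, and the DLD-1 log2 fold change of TPSB2 and PHF24 was exactly 0. Whether low counts set these r values was not tested.

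The 6 genes were then set beside every gene with such a run. In the annotation, 33 genes held a run of 13 or more bases of the shNAT10-1 target in the sense direction. Of these, 12 were not listed or did not pass the filter, NAT10 was the target itself, and 20 remained, of which 14 were not among the 6. TARS2, the mitochondrial threonyl-tRNA synthetase, had the longest run of the tested genes, 15 bases (target bases 3 to 17) in coding exon 12 of 18 at chr1:150498911-150498925, plus strand. It had 42.1 and 37.9 CPM in SW480 shControl and 14.6 and 17.6 CPM in shNAT10, and 54.6 and 50.4 CPM in DLD-1 shControl and 31.0 and 29.02 CPM in shNAT10. TARS2 fell by 1.31 ± 0.10 on the log2 scale in SW480 (adjusted p = 2.47e-05) and by 0.81 ± 0.09 in DLD-1 (adjusted p = 0.00393), each with 2 of 2 libraries below shControl. The DLD-1 call was lost without DLD-1 shControl replicate 1 (-0.74, adjusted p = 0.164) or without shNAT10 replicate 1 or 2 (-0.86 and -0.76, adjusted p = 0.113 and 0.120), and also without the filter on low counts (adjusted p = 0.0853) and on FPKM (0.188).

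TARS2 was the only 1 of the 14 genes called in either line, where 0.903% of all tested genes were called lower in SW480 and 0.0147% in DLD-1. TARS2 was also known from earlier results of these data. The other 13 genes had SW480 values between -0.43 and 0.31 and DLD-1 values between -0.69 and 0.22, with lowest adjusted p-values of 0.0870 and 0.864. RNF213, a large ubiquitin ligase with 13 bases in coding exon 51 of 69, had the lowest SW480 value (-0.43 ± 0.12, adjusted p = 0.0870) and was 0.22 ± 0.11 in DLD-1. Its SW480 libraries did not overlap, with 97.1 and 108 CPM in shControl and 65.2 and 86.7 CPM in shNAT10, and it was called without SW480 shNAT10 replicate 2 and with a replicate block. PLAC1, the remaining gene with 14 bases, averaged 1.17 CPM in SW480 shControl, with a fold change of -0.36 ± 0.33. GFM2, a mitochondrial translation factor measured at 53.7 CPM, was -0.12 ± 0.07 in SW480 and -0.14 ± 0.07 in DLD-1. ZC3H14, a poly(A)-binding protein at 112 CPM, was 0.00 ± 0.07 and 0.03 ± 0.07.

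The rest were RTKN2 (-0.18 ± 0.12 in SW480), TK2 (-0.19 ± 0.10), CFAP251 (-0.40 ± 0.23), DLX4 (-0.25 ± 0.26), SATB1 (-0.16 ± 0.71), PMF1-BGLAP (0.00 ± 0.35), ZNF585B (0.08 ± 0.22), TRABD2B (0.13 ± 0.15) and ZCCHC18 (0.31 ± 0.24). For CFAP251, SATB1 and GFM2 the run lay in a transcript without a coding sequence. For TK2, ZCCHC18 and ZNF585B it lay in a coding transcript other than the representative one, the one with the longest coding sequence. COPS9 was the only tested gene besides NAT10 with 13 bases of shNAT10-2, and it stood at 0.00 ± 0.10 in SW480 and -0.06 ± 0.11 in DLD-1.

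**Figure D3:**
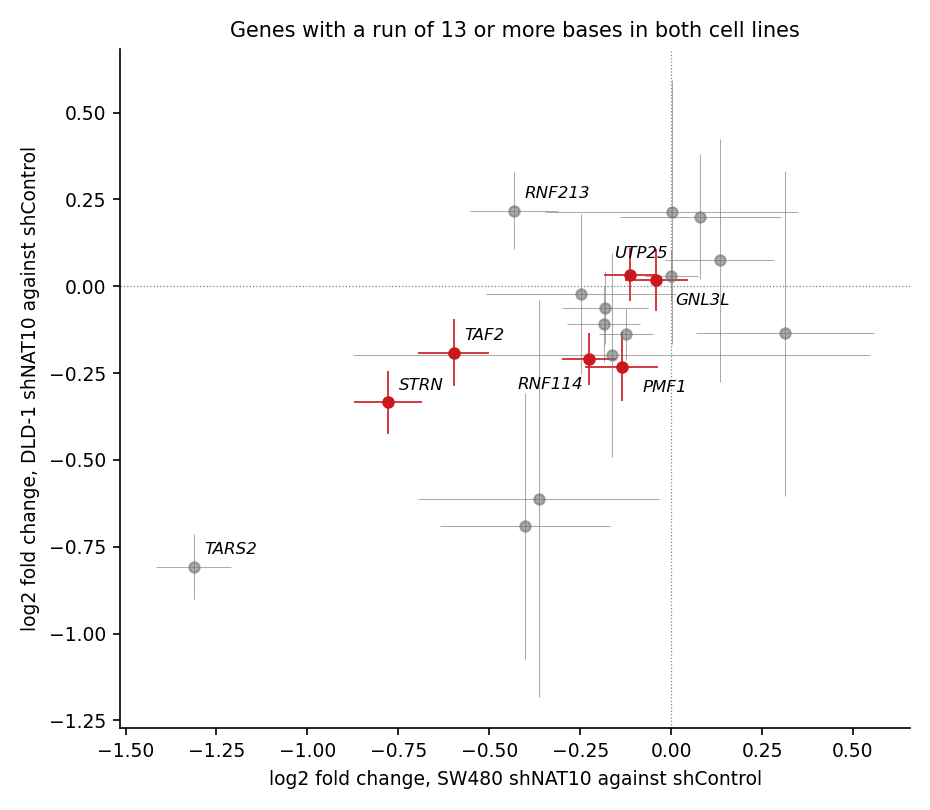
Log2 fold change of shNAT10 against shControl in SW480 (x axis) and DLD-1 (y axis) for the 20 tested genes with a run of 13 or more bases, with SE bars (n = 2 against 2). Red marks the 6 genes. TARS2 (-1.31 and -0.81), STRN (-0.78 and -0.33) and TAF2 (-0.60 and -0.19) lie at the left, RNF213 is above 0 in DLD-1 only, and the wide bars belong to genes with few counts.

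Over the 20 genes, log2 fold changes had a median of -0.17 in SW480 and of -0.12 in DLD-1, and 15 and 13 genes lay below 0. These values include the 6 genes chosen with their fold changes known. Without them, the 14 other genes had medians of -0.17 and -0.08, and 9 of 14 lay below 0 in each line. Of the 20 genes, the 8 whose run covered the complete seed site had medians of -0.13 and -0.12, and the 12 whose run did not had medians of -0.24 and -0.11. By place, the medians in SW480 were -0.25 for the 9 genes with the run in coding sequence and -0.18 for the 7 with it in the 3′UTR. Both splits include the 6 genes chosen with their fold changes known, and PMF1 and PMF1-BGLAP share the same site. Nothing is read from these splits.

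Just below the limit, 53 tested genes had a longest run of 12 bases. Their median was -0.01 in SW480 and 0.00 in DLD-1, with ranges of -0.90 to 0.61 and -0.31 to 0.48. Just inside it, the 14 genes with 13 bases had medians of -0.13 and -0.04, and the 5 with 14 bases had medians of -0.36 and -0.21. Of those 5, 4 are STRN, TAF2, RNF114 and UTP25, chosen with these values known, and the remaining gene is PLAC1, so nothing is read from the step between 13 and 14 bases. In SW480 the medians of shorter runs also moved with transcript length: 4475 genes with a run under 8 bases had a median of 0.04 and a median transcript length of 2267 bases, and 2357 genes with 9 bases had a median of -0.05 and a length of 3992 bases. The part of transcript length in the longer runs was not tested. Runs of 13 or more bases of the reverse complement of the target, which the guide cannot pair with, were found in 20 tested genes, with medians of -0.07 in SW480 and 0.00 in DLD-1. Of these 20 genes, 15 lay below 0 in SW480, the same number as for the sense runs, and 9 did in DLD-1. Over all tested genes with a transcript, 51.9% lay below 0 in SW480 and 49.0% in DLD-1.

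**Figure D4:**
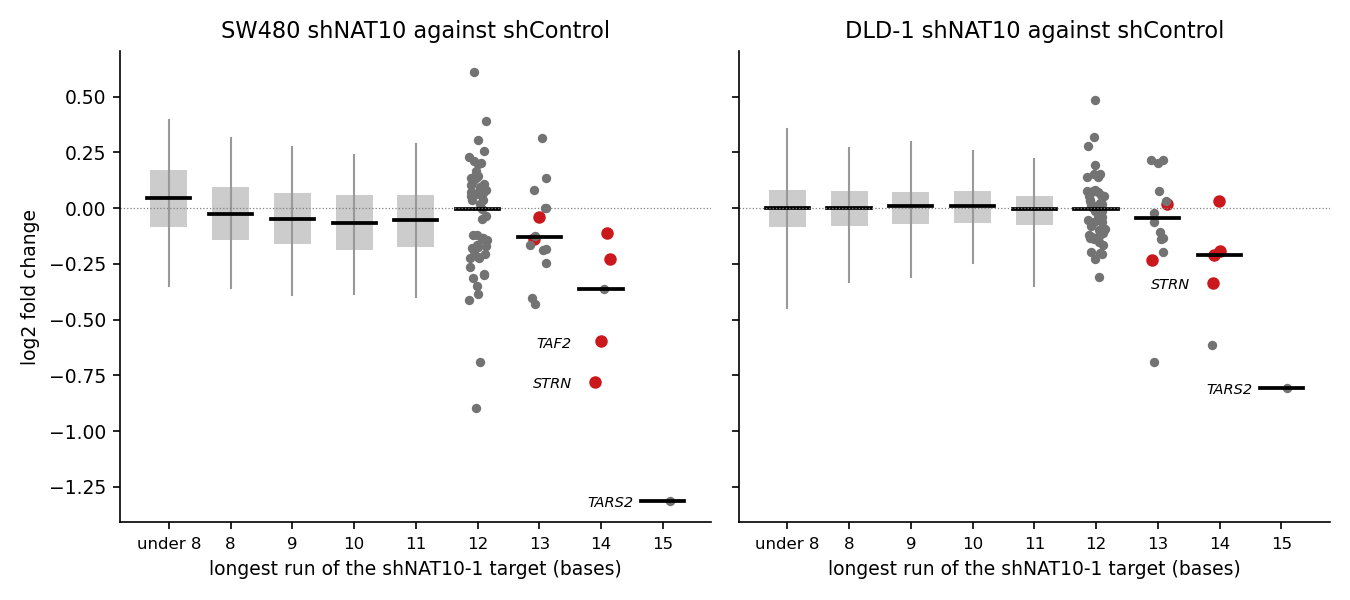
Log2 fold change of shNAT10 against shControl (y axis) by the longest run of the shNAT10-1 target in any annotated transcript of a gene (x axis), NAT10 left out. Up to 11 bases, grey bars span the middle 50% of genes and thin lines 5% to 95%; from 12 bases each gene is a point, red for the 6 genes, and black lines are medians. The medians stay between -0.07 and 0.04 up to 12 bases in SW480 and are -0.36 at 14 bases, where 4 of 5 genes are red, and -1.31 at 15 bases, which is TARS2 alone.

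Counting all matching bases, with no demand that they adjoin, gave a different set. STRN, with 16 of 19, was among 21 tested genes with 16 or more, and these had medians of 0.00 in SW480 and -0.01 in DLD-1. Of the 20 besides STRN, 3 were called lower in SW480 (background 0.903%) and 0 in DLD-1 (0.0147%). An unadjusted p under 0.05 was found for 5 of the 20 in SW480 (background 19.3%) and for 3 in DLD-1 (5.96%). LARS2, the mitochondrial leucyl-tRNA synthetase, matched 17 bases in coding exon 10 of 21 at chr3:45485756-45485774, plus strand. Its site is shown with capitals on the matching bases, because the longest run in it was 11 bases and a search by runs passes it over.
LARS2: GGCCAAAGCTGaCTTGgAA
The differences were T12A and A17G, both opposite the seed. LARS2 had 43.2 and 39.2 CPM in SW480 shControl and 23.1 and 21.7 CPM in shNAT10, and 68.6 and 78.5 CPM against 56.8 and 51.7 CPM in DLD-1. It fell by 0.88 ± 0.10 in SW480 (adjusted p = 0.000603) and its DLD-1 value was -0.44 ± 0.09 (adjusted p = 0.155). YKT6 (-0.34 ± 0.06, adjusted p = 0.0176) and SGPP2 (-0.52 ± 0.11, adjusted p = 0.0346) were the others called in SW480. The LARS2 value in DLD-1 was called in 5 of 15 alternatives: without SW480 shNAT10 replicate 1 or 2 (adjusted p = 0.0432 and 0.0399), with the compared groups alone (0.0225), with DESeq2 (0.0457) and with a replicate block (0.00443). The SW480 call of YKT6 was lost in 5 of 15 alternatives, with adjusted p-values from 0.0505 to 0.248: without SW480 shControl replicate 1 or 2 or DLD-1 shNAT10 replicate 2, without the filter and with the compared groups alone. That of SGPP2 was lost in 9 of 14, with adjusted p-values from 0.0535 to 0.413: without any 1 of 6 libraries (SW480 shControl 1 or 2, SW480 shNAT10 1, DLD-1 shControl 1, DLD-1 shNAT10 1 or 2), without the filter, with the compared groups alone and on FPKM. LARS2, YKT6 and SGPP2, like RPP25L and VMA12, are named after their values were seen. RPP25L and VMA12, which also matched 17 bases, were at 0.41 ± 0.11 and 0.03 ± 0.08 and were not called. For the shNAT10-2 target, 12 tested genes had 16 or more matches. Their medians were -0.18 in SW480 and 0.01 in DLD-1, and 9 and 5 of them lay below 0.

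The partners of the 6 proteins were also examined, since a change shared by a complex would touch its other subunits. In all, 89 partner genes on 6 lists were tested, and 1 was called, DHX37, higher in SW480 (background 0.778%). In DLD-1 0 were called by edgeR, by DESeq2 or by limma, and 5 had an unadjusted p under 0.05 (background 5.96%, with 0.0% called higher). Without SW480 shNAT10 replicate 2, 7 partner genes were called lower and 8 higher in SW480. Of the 18 genes of STRIPAK, the phosphatase and kinase complex built on striatin, 0 were called in either line, and 4 had an unadjusted p under 0.05 in SW480 (background 19.3%), 2 lower and 2 higher. Their median was -0.08 in SW480 and -0.01 in DLD-1. The paralogs STRN3 and STRN4 stood at -0.13 ± 0.09 and 0.11 ± 0.07 in SW480 and are named for their kinship to STRN, after their values were seen. CTTNBP2NL (-0.34 ± 0.11, adjusted p = 0.120) and SIKE1 (-0.26 ± 0.09, adjusted p = 0.140) had the lowest p-values in SW480, and PPP2R1B (0.13 ± 0.08) and PPP2R1A (0.13 ± 0.07) in DLD-1.

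Of the 15 other TFIID genes, 0 were called in either line, the medians were -0.07 and -0.03, and the lowest value in SW480 was that of TAF1 (-0.31 ± 0.11, adjusted p = 0.145). TAF10 was 0.28 ± 0.10 in SW480 (adjusted p = 0.160), and TAF13 (-0.28 ± 0.11) and TAF4 (0.10 ± 0.09) had the lowest p-values in DLD-1. The small-subunit processome list had 39 genes with medians of 0.06 and 0.02, 16 of them lay below 0 in SW480, and 1 gene passed. DHX37, an RNA helicase, rose from 35.6 and 38.3 CPM to 48.5 and 48.0 CPM in SW480 (log2 0.38 ± 0.08, adjusted p = 0.0372) and was 0.18 ± 0.08 in DLD-1 (adjusted p = 0.833). Its call was lost in 7 of 14 alternatives, with adjusted p-values from 0.0842 to 0.248: without any 1 of 5 libraries (SW480 shNAT10 1, SW480 shControl 1 or 2, DLD-1 shNAT10 1 or 2), without the filter and with the compared groups alone. RRP9 was 0.26 ± 0.07 in SW480 (adjusted p = 0.0883), and NOL6 was 0.12 ± 0.07 in DLD-1.

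For the 5 GTPases related to GNL3L the SW480 values ran from -0.01 (LSG1) to 0.13 (GNL3), with GNL1 at 0.11 and GNL2 at 0.06, and 0 were called. The kinetochore list, the KMN network without PMF1 and in addition ZWINT, had 9 genes, and 0 were called. DSN1, a partner of PMF1 in the MIS12 complex, was -0.25 ± 0.08 in SW480 (adjusted p = 0.109) and -0.19 ± 0.08 in DLD-1 (adjusted p = 0.816). ZWINT was 0.17 ± 0.08 in SW480, and SPC24 (-0.24 ± 0.09) and SPC25 (-0.23 ± 0.09) were lowest by p-value in DLD-1. Of the 3 ligases related to RNF114, 0 were called, with RNF125 at -0.24 ± 0.16 and -0.39 ± 0.19 and RNF166 at 0.10 ± 0.12 and 0.09 ± 0.12.

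**Figure D5:**
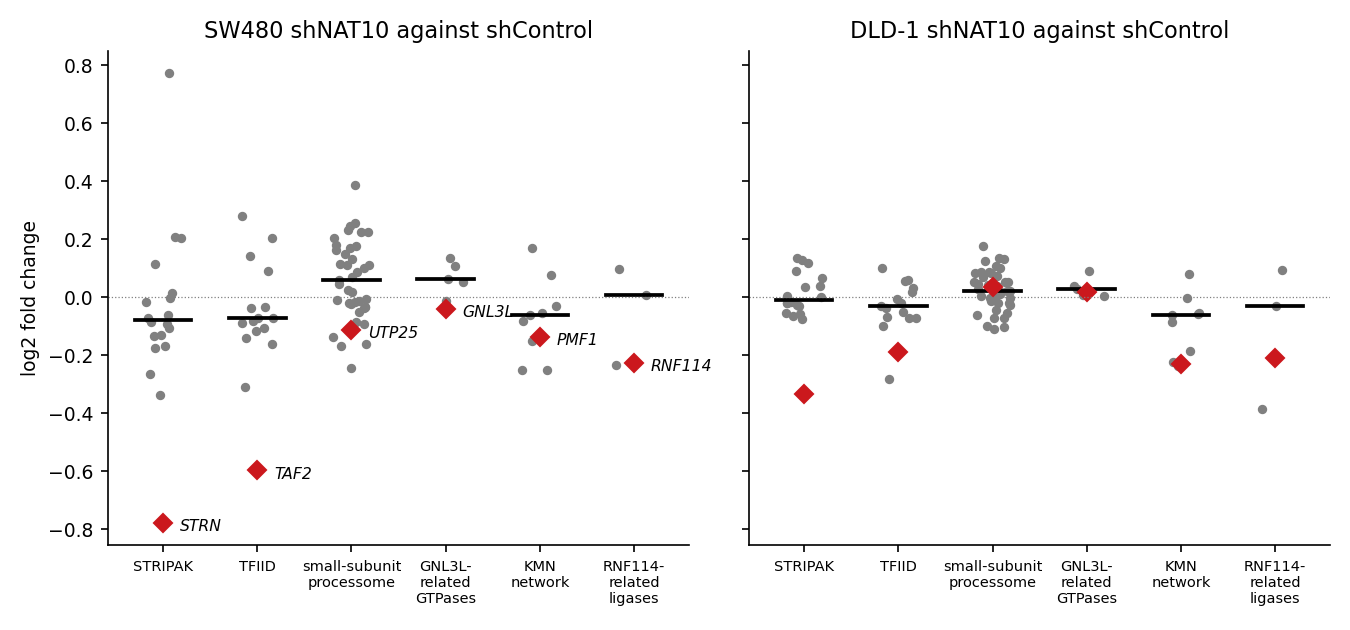
Log2 fold change of shNAT10 against shControl (y axis) of the genes on each partner list (grey points, black line at the median) and of the gene the list belongs to (red diamond), in SW480 and DLD-1. STRN (-0.78) and TAF2 (-0.60) lie below every gene on their lists in SW480, whose lowest values are -0.34 and -0.31. The other 4 genes lie within or near the range of theirs. The genes marked in red were chosen with their fold changes known, so nothing is read from their place beside the lists.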

How the data were processed

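RNA-seq of 8 libraries (2 cell lines, 2 viruses, 2 libraries a group) was used. The authors deposited a table of estimated counts and FPKM per RefSeq transcript, made with HISAT2 2.0.4, Bowtie2 2.2.5 and RSEM 1.2.12 on hg38, as named in the submitters' processing notes. The counts were summed per gene and rounded. The 4 deposited columns of group averages were not used. In the table used here 1 SW480 shNAT10 library lacks FPKM for part of its transcripts, so that 6305 genes have complete FPKM. FPKM served for levels per length and 1 alternative, on log2(FPKM + 1).

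Genes that passed filterByExpr (minimum count 10, total 15) were fitted in edgeR 4.0.16 (R 4.3.3) with TMM scaling, 4 groups and the quasi-likelihood test, called at a Benjamini-Hochberg adjusted p under 0.05. The fit was tested on simulated counts in which 200 genes were altered. All groups were drawn from the shControl means of the line compared, with the same spread per gene in every group. The wider gap between the SW480 shNAT10 libraries was thus not simulated, and the shares below hold for this setting only. A log2 change of 1 was recovered for 90.8% of changed genes in the SW480 comparison (13195 genes) and 91.5% in the DLD-1 comparison (12564 genes). Changes of 0.5 were recovered for 62.1% and 73.1%, and 6.33% and 7.78% of calls were false.

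The longest common run of each hairpin target, and ungapped matches over 19 positions, were found in GENCODE 29 transcripts (GRCh38). Runs were recorded from 8 bases. Tested genes with a transcript made up 99.1%. The genes named are the 6 genes, NAT10, TARS2, tested genes with a run of 13 or more bases, of each partner list the genes called and the 2 with the lowest p in each line, and the 3 genes most correlated with each of the 6, of which 1 is not reported here. The genes, partner lists and tests were chosen with earlier results of these data known. Alternatives were DESeq2 1.42.0, limma 3.58.1, other scaling and filters, a replicate block, the compared groups alone, and leaving out each library.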

Additional observations from a re-analysis of the deposited data

Results flagged for a closer look

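NAT10 fell further in SW480 than in DLD-1, with a difference between the log2 fold changes of -1.16 ± 0.12 (SE, adjusted p = 0.0015, interaction term in edgeR, 1 gene called lower of 13619). It was lower in 2 of 2 shNAT10 libraries in each line, and the call was lost without DLD-1 shNAT10 replicate 1 (-1.10, adjusted p = 0.0726).

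The UTP25 libraries moved in opposite directions without overlap, and this difference was not tested. Its log2 fold change was -0.11 ± 0.071 (SE) in SW480 and 0.034 ± 0.076 in DLD-1. Of all tested genes, 26.2% lay wholly lower in SW480 and 17.7% wholly higher in DLD-1. With 2 libraries a group, no check for a library far from the rest of its group could be made.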

How the results depend on the processing

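The fold changes of STRN, TAF2, RNF114, UTP25 and PMF1 kept their sign in both lines under every alternative run, and that of GNL3L changed sign when single libraries were left out (-0.08 to 0.01 in SW480 and -0.10 to 0.16 in DLD-1). Counts over all genes moved more, and the cause was not tested. Genes lower in SW480 numbered 123, and 21 without the filter, 13 with the compared groups alone, 15 on FPKM and 8 to 1131 when a library was left out. Genes higher in SW480 numbered 106, and 20, 16 and 13 under the same alternatives, 168 with DESeq2 and 9 to 1031 with a library left out. Leaving out SW480 shControl replicate 2 gave the lowest of these counts, and leaving out SW480 shNAT10 replicate 2 the highest. In DLD-1, 2 genes were lower, and 1 without the filter, 13 with the groups alone, 9 with DESeq2, 1 on FPKM and 1 to 10 with a library left out; 0 were higher, and 25 with the groups alone, 16 with DESeq2 and 0 to 20 with a library left out. Between the shControl groups, 4855 lower and 5191 higher genes became 2083 and 2364 on FPKM, where fewer genes were tested. The difference between the lines gave 1 lower and 0 higher gene, 8 and 13 with DESeq2, 0 lower on FPKM, and 0 to 170 lower and 0 to 176 higher with a library left out. On the partner lists in SW480, 0 genes were lower (0 to 7 with a library left out) and 1 was higher (0 without the filter, with the groups alone and on FPKM, 0 to 8 with a library left out). A library that was alone in its group was assumed to vary like the others.

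The median of genes with 13 or more bases was -0.17 in SW480, -0.067 for the reverse complement, 0.0019 for 16 or more matches of 19 (an alternative chosen after seeing the data) and -0.25 to -0.11 with a library left out. In DLD-1 it was -0.12, 0 for the reverse complement and -0.0086 for 16 or more matches. With only 1 transcript searched per gene, 14 genes kept such a run, with medians of -0.20 in SW480 and -0.04 in DLD-1. With at least 10 counts in every library the medians were -0.18 and -0.06.

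The labels do not say whether libraries with the same replicate number were handled together. Between groups, their deviations had correlations of 0.063 to 0.44. Whether they share a batch was not tested, and the main fit had no block. With the replicate number as a block, 920 genes were lower and 734 higher in SW480, 29 and 36 in DLD-1, 102 and 107 for the difference, and 6 and 10 partner genes in SW480. Between the shControl groups the block added calls for STRN (adjusted p = 0.0212) and PMF1 (0.0318). In SW480 it added calls for RNF213, PPP2R1A, SIKE1, CTTNBP2NL, TAF1, TAF10, RRP9 and DSN1, all but DSN1 called also without SW480 shNAT10 replicate 2.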
